A study of Arabidopsis thaliana with 9 samples.

Results

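MYB47, the clade D protein phosphatase gene APD7 (AT5G02760), AT1G62660 and AT4G33040 had more RNA, and AT5G26270 had less, in each of 2 transgenic Arabidopsis thaliana lines, from a study of increased leaf size, than in wild type. They are 5 of the 20777 loci measured, and they were picked by name from the loci called in both lines with the same sign, so their differences from wild type are described here and not tested. The BRI1 line carries extra BRI1, the brassinosteroid receptor. Its genotype label gives the gene under its own promoter (pBRI1::BRI1) and its source label gives 35S::BRI1, so the promoter is not settled. The other line is labelled 35S::AVP1, in which the constitutive 35S promoter drives AVP1, the proton-pumping pyrophosphatase of the vacuole. Both lines are set against wild type (WT), and all 3 genotypes are labelled Col-0. Each genotype has 3 arrays, one per biological repeat, of RNA from the vegetative part of seedlings at growth stage 1.03, raised in vitro on MS in a cycle of 16 h light and 8 h darkness at 22 °C. The labels do not say how many transformants each line stands for. The whole seedling shoot was used, so a change in the share of a cell type and a change in RNA per cell cannot be told apart.

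R2R3-MYB proteins are plant transcription factors with 2 repeats of the MYB DNA-binding domain, and MYB47 is one of them. Clade D type 2C protein phosphatases remove the phosphate that keeps plasma membrane proton ATPases active. SAUR proteins, many of which are made in response to auxin or brassinosteroid, block these phosphatases, and the pump then acidifies the wall and lets the cell expand. APD7 is a phosphatase gene of this clade in the gene table used for names. That table gives no descriptive name for AT1G62660, AT4G33040 or AT5G26270, and no role is given to them here.

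Values are log2 RMA levels, on which a difference of 1 is a 2-fold difference. BRI1 was at 12.28 ± 0.09 in the BRI1 line and 9.55 ± 0.03 in wild type (SD, n = 3 each), a 6.66-fold difference. AVP1 was at 12.54 ± 0.04 on the arrays labelled 35S::AVP1 and 12.63 ± 0.07 in wild type, so these arrays show no extra AVP1 signal, and the name of the line is used here as a label only. Arrays labelled 35S::AVP1 correlated with wild type at 0.980 to 0.986 across loci, and arrays of the BRI1 line at 0.990 to 0.997. The leaf genes RCA, GAPA and PSAD2 had group means between 13.26 and 14.20, near the top of the scale, in every genotype. The mean level of 8 root markers was 5.64 to 5.78 per array in the BRI1 line, 5.85 to 5.97 on the arrays labelled 35S::AVP1 and 5.56 to 5.66 in wild type. PYK10 (0.86) and PHO1 (0.81) rose on the arrays labelled 35S::AVP1 by limma (adjusted p = 0.000698 and 0.0196). These are 25% of the 8 root markers, where 11.1% of all loci were called. PHO1 failed without replicate 1 labelled 35S::AVP1 or wild type replicate 3 (adjusted p up to 0.0742). Limma called 0 of the 8 in the BRI1 line, and 1 had an unadjusted p under 0.05. IRT1, another of the 8 root markers, stayed at 3.59 to 3.64 in the group means, below the 10th percentile of every array (3.71 to 3.79). At that level nothing is read from it about root tissue. Of 4 floral genes, SEP3 (1.80) and AG (0.57) rose on the arrays labelled 35S::AVP1 by limma (50%, beside 11.1% of all loci). In the BRI1 line 0 were called, and 1 had an unadjusted p under 0.05. Mean levels of the 4 were 3.80 to 3.97 in the BRI1 line, 4.51 to 4.86 on the arrays labelled 35S::AVP1 and 3.94 to 4.07 in wild type. AG was dim, in the lowest 25% of loci by mean level, and was not in the fit without dim loci. The part of these markers in the differences below was not tested.

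Limma with Benjamini-Hochberg adjustment over all loci called 17 loci (0.0818%) in the BRI1 line and 2300 (11.1%) on the arrays labelled 35S::AVP1, each against wild type. Higher calls were 0.0385% and lower calls 0.0433% of all loci in the BRI1 line, against 6.31% and 4.76% on the arrays labelled 35S::AVP1. Calls in both lines with the same sign numbered 7 (0.0337% of all loci; 0.0193% higher and 0.0144% lower): the 5 genes described here, and the falls of DWF4, a cytochrome P450 of brassinosteroid synthesis, and TI2, a trypsin inhibitor, which were not on the list of names. One locus, BR6OX2, was called in both lines with opposite signs. The 2 comparisons share the wild type arrays, so an error in the wild type mean pushes both differences the same way. The adjusted p-values that chose the genes lay closest to the threshold in the BRI1 line, at 0.0157 for AT5G26270, 0.0220 for MYB47, 0.0305 for APD7, 0.0409 for AT1G62660 and 0.0469 for AT4G33040. On the arrays labelled 35S::AVP1 the value nearest the threshold was 0.0352, for AT1G62660. Just outside stood CPD (0.0599 on the arrays labelled 35S::AVP1), CYP71B22 (0.0639 in the BRI1 line) and CYP90D1 (0.0774 on the arrays labelled 35S::AVP1), all lower in both lines than in wild type. The choice rests on each array: with any 1 of the 9 arrays left out, between 0 and 4 loci were called in both lines with the same sign. The count was 0 without BRI1 line replicate 1 or 3 or wild type replicate 2, and 1 without wild type replicate 1. It was 2 without BRI1 line replicate 2 or replicate 1 or 3 labelled 35S::AVP1, 3 without replicate 2 labelled 35S::AVP1 and 4 without wild type replicate 3. With each line fitted alone with wild type it was 0. The signs of the 5 genes' differences were kept in each of these fits.

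MYB47 (AT1G18710) was at 6.73, 6.64 and 6.65 in the BRI1 line, 7.18, 7.18 and 7.23 on the arrays labelled 35S::AVP1 and 5.98, 6.01 and 6.18 in wild type. The 3 genotypes formed 3 separate steps, with the arrays labelled 35S::AVP1 on top, the BRI1 line in the middle and wild type lowest. Means were 6.67 ± 0.05 in the BRI1 line, 7.20 ± 0.03 on the arrays labelled 35S::AVP1 and 6.06 ± 0.11 in wild type (SD, n = 3 each). MYB47 was thus 1.53-fold higher in the BRI1 line and 2.20-fold higher on the arrays labelled 35S::AVP1 than in wild type. No gene of the 5 had a tighter fit, with a residual SD of 0.07 that lay at the 15.8 percentile of all loci.

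APD7 was at 10.48, 10.28 and 10.37 in the BRI1 line, 10.23, 10.21 and 10.26 on the arrays labelled 35S::AVP1 and 9.75, 9.89 and 9.70 in wild type. Every array of a line lay above every wild type array, and the arrays of the lines were nearly adjacent, with a gap of 0.02 between the lowest of the BRI1 line and the highest labelled 35S::AVP1. Its means were 10.37 ± 0.10 in the BRI1 line, 10.23 ± 0.03 on the arrays labelled 35S::AVP1 and 9.78 ± 0.10 in wild type (SD, n = 3 each), or 1.51-fold and 1.36-fold above wild type in the lines in that order.

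AT1G62660 was at 8.18, 7.77 and 8.23 in the BRI1 line, 7.68, 7.66 and 7.64 on the arrays labelled 35S::AVP1 and 7.32, 7.21 and 7.16 in wild type. Here the BRI1 line was highest, but replicate 2 of that line stood well below the other two and only 0.09 above the nearest array labelled 35S::AVP1. The SD of the BRI1 line, 0.25 around a mean of 8.06, was therefore wider than those of the other groups (7.66 ± 0.02 labelled 35S::AVP1 and 7.23 ± 0.08 in wild type; n = 3 each). AT1G62660 was 1.78-fold above wild type in the BRI1 line and 1.34-fold on the arrays labelled 35S::AVP1.

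AT4G33040 was at 6.51, 6.41 and 6.76 in the BRI1 line, 6.61, 6.71 and 6.79 on the arrays labelled 35S::AVP1 and 5.88, 5.79 and 5.95 in wild type. The arrays of the lines overlapped each other and none reached down to wild type. Means were 6.56 ± 0.18 in the BRI1 line, 6.70 ± 0.09 on the arrays labelled 35S::AVP1 and 5.87 ± 0.08 in wild type (SD, n = 3 each), which are 1.61-fold and 1.78-fold above wild type in that order.

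AT5G26270, the only one of the 5 that was lower, was at 6.57, 6.36 and 6.69 in the BRI1 line, 5.49, 5.56 and 5.71 on the arrays labelled 35S::AVP1 and 7.47, 7.89 and 7.59 in wild type. The order was that of MYB47 turned over: wild type highest, the BRI1 line in the middle and the arrays labelled 35S::AVP1 lowest, without overlap. The BRI1 line averaged 6.54 ± 0.17, the arrays labelled 35S::AVP1 5.59 ± 0.11 and wild type 7.65 ± 0.22 (SD, n = 3 each). The level was 2.16-fold lower in the BRI1 line and 4.18-fold lower on the arrays labelled 35S::AVP1 than in wild type. Its lowest value, 5.49, lay above the 10th percentile of every array, so the lower end of the scale was not reached. Whether the array's probes pair equally well with this gene in each genotype was not tested.

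**Figure D1:**
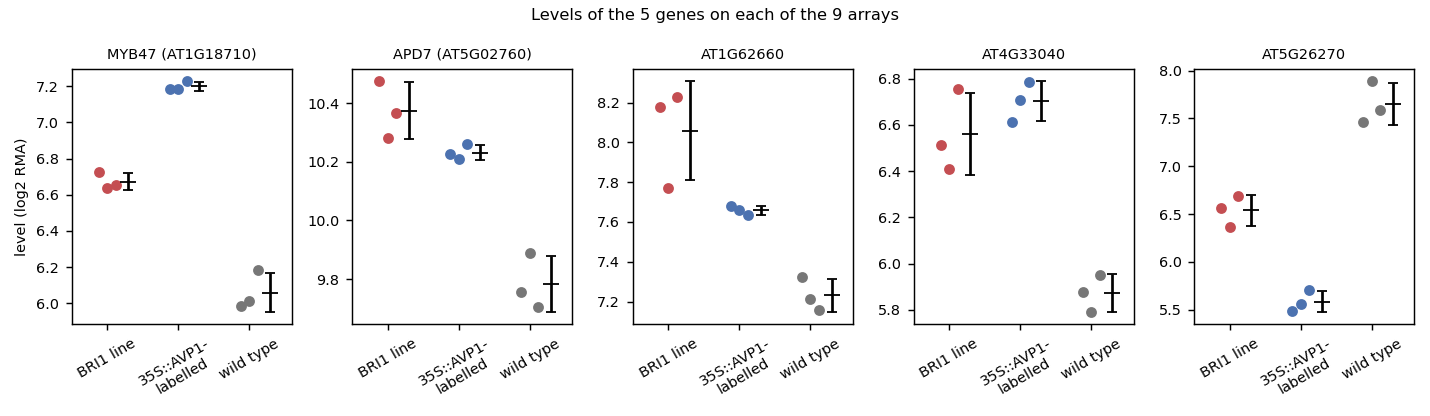
Level (log2 RMA) of each of the 5 genes on the 9 arrays, grouped as BRI1 line, arrays labelled 35S::AVP1 and wild type; circles are arrays, and the bar beside each group is the mean with 1 SD (n = 3). The line arrays lie above wild type in the first 4 panels and below it for AT5G26270, and the lines themselves overlap for AT4G33040 alone; the vertical axes differ between panels and do not start at 0.

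The levels of the lines' arrays and wild type did not overlap for any of the 5 genes, in either line. Such separation held for 10.1% of all loci in the BRI1 line (4.38% higher, 5.75% lower) and 28.4% on the arrays labelled 35S::AVP1 (18.8% higher, 9.63% lower), and since the genes were chosen on these contrasts, nothing is read from it. By size, the difference of AT1G62660 from wild type ranked 21st from the top of all loci in the BRI1 line and 926th on the arrays labelled 35S::AVP1. That of MYB47 ranked 48th and 108th, that of APD7 52nd and 855th, and that of AT4G33040 32nd and 214th. AT5G26270 was 23rd from the bottom in the BRI1 line and 57th on the arrays labelled 35S::AVP1. Differences of the same size thus stood further out in the BRI1 line, where the SD of the log2 differences over all loci was 0.15, against 0.35 on the arrays labelled 35S::AVP1.

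The direct comparison of the lines was not itself used to choose the genes, but it is not independent of the choice. Its log2 difference is that of the BRI1 line from wild type minus that of the arrays labelled 35S::AVP1 from wild type. The choice used both, so the values below describe the 5 genes and nothing is read from the number called or separated. Of the 5 genes, 3 differed between the BRI1 line and the arrays labelled 35S::AVP1 by limma, where 10.3% of all loci were called (4.05% higher and 6.27% lower in the BRI1 line). The arrays of the lines did not overlap for 4 of the 5, beside 30.3% of all loci (9.36% higher, 21% lower). For MYB47 the log2 difference was -0.53, lower in the BRI1 line (SE 0.07; 95% interval -0.69 to -0.37; limma adjusted p = 0.00101), with all 3 arrays of the BRI1 line below all 3 labelled 35S::AVP1. AT5G26270 had a log2 difference of 0.95, higher in the BRI1 line (SE 0.12, 95% interval 0.68 to 1.22; limma adjusted p = 0.000713), again without overlap. For both genes the BRI1 line therefore stood nearer to wild type, at 0.54 times the log2 difference seen on the arrays labelled 35S::AVP1. Both calls held in all 15 alternative fits.

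AT1G62660 differed between the lines in the other sense, being further from wild type in the BRI1 line, by 0.40 (SE 0.11, 95% interval 0.15 to 0.65; limma adjusted p = 0.0486). That call was near the threshold and rested on most arrays. It failed without BRI1 line replicate 1 (0.34, adjusted p = 0.155) or 3 (0.32, 0.173), without replicate 1 (0.41, 0.106), 2 (0.40, 0.122) or 3 (0.39, 0.115) labelled 35S::AVP1, and without wild type replicate 2 (0.40, 0.0746) or 3 (0.40, 0.0564), by limma. It also failed when only the arrays of the lines were fitted (0.40, limma adjusted p = 0.0688). Without BRI1 line replicate 2, the low array, the difference was 0.54 (limma adjusted p = 0.00267). APD7 and AT4G33040 were not called between the lines. The difference of APD7 was 0.14 (95% interval -0.03 to 0.31; limma adjusted p = 0.293) and that of AT4G33040 was -0.14 (95% interval -0.36 to 0.07; limma adjusted p = 0.425). These intervals leave room for a difference of up to 0.31 and 0.36 in size, so equal levels in the lines are not shown.

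**Figure D2:**
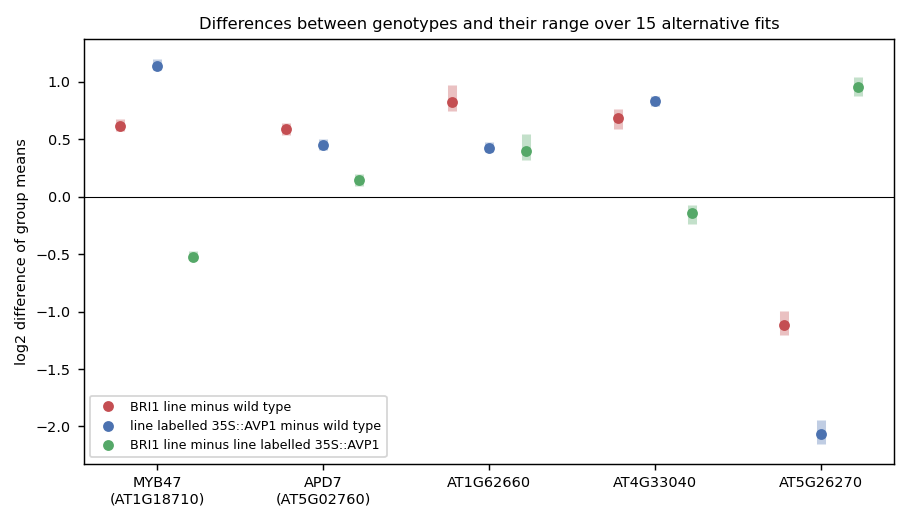
Log2 differences of group means for the 5 genes in the 3 comparisons; circles are the values from all 9 arrays and the pale bars span the 15 alternative fits. Differences from wild type keep their sign throughout, and the difference between the lines is negative for MYB47 and AT4G33040 and positive for the other 3 genes.

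Loci with the most similar profiles were found from the root mean square difference over the 9 arrays, after the wild type mean of each locus was set to 0. The locus nearest to AT4G33040 was PYK10, a beta-glucosidase gene of the endoplasmic reticulum bodies and one of the root markers above, at a distance of 0.10. PYK10 was at 11.57, 11.39 and 11.85 in the BRI1 line, 11.79, 11.78 and 11.79 on the arrays labelled 35S::AVP1 and 10.88, 11.05 and 10.85 in wild type. As for AT4G33040, the arrays of the lines overlapped each other and lay above wild type, a likeness for which PYK10 was picked. The other two nearest to it were AT5G61290 (0.16) and AT5G11930 (0.17).

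The loci nearest to APD7 were MVP1 (0.13), whose mutants have altered vacuoles and endomembranes, the receptor-like kinase gene PXC3 (AT2G41820, 0.13) and MEB1 (0.13), which encodes a membrane protein of the endoplasmic reticulum bodies. MEB1 differed from wild type by 0.52 in the BRI1 line (limma adjusted p = 0.0787) and 0.53 on the arrays labelled 35S::AVP1 (limma adjusted p = 0.00231). It was picked for a profile like that of APD7, so nothing is read from these values. APD7 was itself the second nearest locus to AT1G62660 (0.17), between the cellulose synthase-like gene CSLG3 (0.16) and AT3G28270 (0.18). Nearest to MYB47 were the cyclic nucleotide-gated channel gene CNGC4 (0.19), AT5G09570 (0.20) and AT1G27030 (0.20), and AT4G33040 was at place 4 (0.21). Nearest to AT5G26270 were AT1G22890 (0.36), the gibberellin-responsive peptide gene GASA1 (0.41) and CYP89A9 (0.50). GASA1 was at 8.21 in the BRI1 line, 7.28 on the arrays labelled 35S::AVP1 and 9.09 in wild type. This is the order of genotypes seen for AT5G26270, a likeness for which GASA1 was picked, so nothing is read from it. Distances grow with the size of a change, so they rank loci within 1 gene's list and do not compare genes.

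Gene lists that do not contain the 5 genes were then read in the same fit. The MYB list goes with MYB47, and the phosphatase, proton ATPase and leaf senescence lists go with APD7. The invertase, sucrose, glutaredoxin and TGA lists were read without a stated link to any of the 5 genes. In the BRI1 line limma called 0 of 98 measured genes in 8 such lists (11 at an unadjusted p under 0.05), where 0.0818% of all loci were called. The share of all loci at that unadjusted limit was not counted, so nothing is read from the number under it. On the arrays labelled 35S::AVP1 it called 16 of the 98 (16.3%), 7 higher and 9 lower, beside 11.1% of all loci. Median differences over the 98 were 0.00 in the BRI1 line and 0.06 on the arrays labelled 35S::AVP1, against -0.01 and 0.05 over all loci in that order.

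None of 15 other R2R3-MYB genes on the list was called in either line. At an unadjusted p under 0.05 there were 0 in the BRI1 line and 3 on the arrays labelled 35S::AVP1. How alike these genes are to MYB47 in sequence was not measured here. MYB14, a regulator of freezing tolerance, differed by 0.20 on the arrays labelled 35S::AVP1 (limma adjusted p = 0.10) and MYB30, a regulator of the hypersensitive response, by -0.23 (limma adjusted p = 0.109). MYB95 differed by 0.20 in the BRI1 line and by -0.47 on the arrays labelled 35S::AVP1 (limma adjusted p = 0.998 and 0.371). Differences in the list ran from -0.46 to 0.25 in the BRI1 line and from -0.47 to 0.21 on the arrays labelled 35S::AVP1. Those of MYB47 were 0.61 and 1.14. MYB47 was chosen for being higher in both lines, so nothing is read from its place above the list.

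Of 8 other clade D phosphatase genes, 0 were called in the BRI1 line (2 at an unadjusted p under 0.05). On the arrays labelled 35S::AVP1, 1 rose and 1 fell (25%, beside 11.1% of all loci). APD8 (AT5G06750) rose there by 0.45 (limma adjusted p = 0.00857), at 6.63, 6.88 and 6.63 against 6.24, 6.27 and 6.29 in wild type, and passed with any 1 array left out. APD9 (AT5G66080) fell by 0.34, at 6.52, 6.65 and 6.43 against 6.77, 7.02 and 6.83 in wild type (limma adjusted p = 0.0381), but failed in 6 of the 9 fits without an array, with an intensity trend and with only the groups compared (adjusted p up to 0.129). In the BRI1 line APD9 was at 6.37, 6.40 and 6.54, below wild type on all 3 arrays, with a difference of -0.44 (limma adjusted p = 0.233). APD8 was at 6.35, 6.56 and 6.44 in the BRI1 line, above wild type on all 3 arrays, with a difference of 0.18 (limma adjusted p = 0.95). The mean of AT4G33920, also on the list, was lower than wild type in both lines (-0.41 in the BRI1 line and -0.25 labelled 35S::AVP1). APD7 was chosen for being higher in both lines, so nothing is read from its direction beside those of the listed genes. Of 11 plasma membrane proton ATPase genes, which encode the pumps these phosphatases act on, limma called 0 in either line (0 and 3 at an unadjusted p under 0.05). AHA1 and AHA2, the main pumps of vegetative tissue, differed by 0.00 and -0.05 in the BRI1 line and by 0.04 and 0.16 on the arrays labelled 35S::AVP1. The lowest adjusted p-values were those of AHA8 (0.37, limma adjusted p = 0.0681) and AHA10 (0.41, limma adjusted p = 0.0756) on the arrays labelled 35S::AVP1.

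A list of CC-type glutaredoxins, small plant-specific redox proteins that bind TGA transcription factors, was also read. Of 16 measured members limma called 7 on the arrays labelled 35S::AVP1 (43.8%, beside 11.1% of all loci), 1 higher and 6 lower. In the BRI1 line it called 0, with 6 at an unadjusted p under 0.05, a count with no share of all loci to set beside it. The gene table names 4 of the 19 genes on the list, and membership of the others is that of the list. AT5G11930, which rose, was at 4.84, 4.72 and 5.0 in the BRI1 line, 5.21, 5.09 and 5.17 on the arrays labelled 35S::AVP1 and 4.33, 4.47 and 4.39 in wild type. Its arrays separated from wild type in both lines, upwards as those of AT4G33040 did. The differences were 0.46 in the BRI1 line (limma adjusted p = 0.138) and 0.76 on the arrays labelled 35S::AVP1 (limma adjusted p = 0.000222). AT5G11930 was also among the loci nearest to AT4G33040 by profile, so nothing is read from the shared direction.

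The glutaredoxin loci that fell had log2 differences of -2.02 to -0.40 on the arrays labelled 35S::AVP1. AT3G62950 was at 4.84, 4.47 and 4.02 in the BRI1 line, 3.90, 3.99 and 3.48 on the arrays labelled 35S::AVP1 and 6.57, 5.55 and 5.31 in wild type. All arrays of the lines lay below wild type, with differences of -1.37 in the BRI1 line (limma adjusted p = 0.333) and -2.02 on the arrays labelled 35S::AVP1 (limma adjusted p = 0.00216). AT5G18600 had the same arrangement, at -0.75 in the BRI1 line (limma adjusted p = 0.639) and -1.07 on the arrays labelled 35S::AVP1 (limma adjusted p = 0.0123). Separation downwards from wild type held for 5.75% of all loci in the BRI1 line and 9.63% on the arrays labelled 35S::AVP1. The lowest AT3G62950 value labelled 35S::AVP1, 3.48, lay below the 10th percentile of every array (3.71 to 3.79). The lower end of the scale was thus reached, and the size of that fall is uncertain. AT2G47880 fell on the arrays labelled 35S::AVP1 (-0.97, limma adjusted p = 0.00127) and was at -0.09 in the BRI1 line (limma adjusted p = 0.998). The remaining falls were the adjacent loci AT4G15680 (-0.40), AT4G15690 (-0.60) and AT4G15700 (-0.53), whose probes may not tell these similar copies apart; their calls failed without 4, 3 and 1 of the 9 arrays (adjusted p up to 0.0727), and that of AT4G15690 also with only the groups compared. AT4G15690 and AT4G15700 lay in the lowest 25% of loci by mean level and were not in the fit without dim loci. The named members ROXY1 and ROXY2, which act in petal and anther development, GRX480 and GRXS13 were not called in either line. Of 10 TGA factors, TGA1 (0.67, limma adjusted p = 0.000883) and TGA7 (0.43, limma adjusted p = 0.0209) rose on the arrays labelled 35S::AVP1 (20%, beside 11.1% of all loci). The call of TGA7 failed without 4 of the 9 arrays. Limma called 0 TGA factors in the BRI1 line, with 0 at an unadjusted p under 0.05.

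Sucrose can be split by invertases or by sucrose synthases after transport into the cell or vacuole. Of 11 invertase and invertase inhibitor genes, the cytosolic invertase gene CINV1 fell on the arrays labelled 35S::AVP1 (9.09%, beside 11.1% of all loci). Its difference was -0.33 (limma adjusted p = 0.0239), and the call was lost without 4 of the 9 arrays and with only the groups compared. In the BRI1 line 0 of the 11 were called (1 at an unadjusted p under 0.05). The vacuolar invertase gene VI2 (AT1G12240) differed by 0.01 in the BRI1 line and 0.17 on the arrays labelled 35S::AVP1 (limma adjusted p = 0.999 and 0.468). Of 13 sucrose synthase and sugar transport genes, the sucrose-proton symporter gene SUC1 (1.17, limma adjusted p = 0.000376), SUS1 (0.73, limma adjusted p = 0.00175) and the sucrose exporter gene SWEET11 (0.34, limma adjusted p = 0.0193) rose on the arrays labelled 35S::AVP1. These are 23.1% of the list, beside 11.1% of all loci. SUC1 was at 8.29, 7.91 and 8.19 in the BRI1 line, 9.20, 9.29 and 9.15 on the arrays labelled 35S::AVP1 and 8.29, 8.10 and 7.76 in wild type, so the BRI1 line overlapped wild type. The call of SWEET11 was lost without 5 of the 9 arrays, after median centring and when only the groups compared were fitted. Limma called 0 of the 13 in the BRI1 line, with 0 at an unadjusted p under 0.05.

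APD7 has also been studied as a phosphatase that holds back leaf senescence by acting on the receptor-like kinase SARK. SARK itself differed by 0.05 in the BRI1 line and 0.01 on the arrays labelled 35S::AVP1 (limma adjusted p = 0.995 and 0.936). Of 14 leaf senescence genes, WRKY6 fell on the arrays labelled 35S::AVP1 (7.14%, beside 11.1% of all loci). Its difference was -0.38 (limma adjusted p = 0.0483), and the call was lost without 6 of the 9 arrays, with the intensity trend and with only the groups compared. In the BRI1 line 0 of the 14 were called (2 at an unadjusted p under 0.05). Differences of the 14 in the BRI1 line ran from -0.78 to 1.36, with a median of -0.04. The highest was that of the sugar transporter gene SWEET15, which rises in senescing leaves, and it was not called (limma adjusted p = 0.455). The late senescence protease gene SAG12 had group means of 3.61 to 3.68, below the 10th percentile of the arrays.

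**Figure D3:**
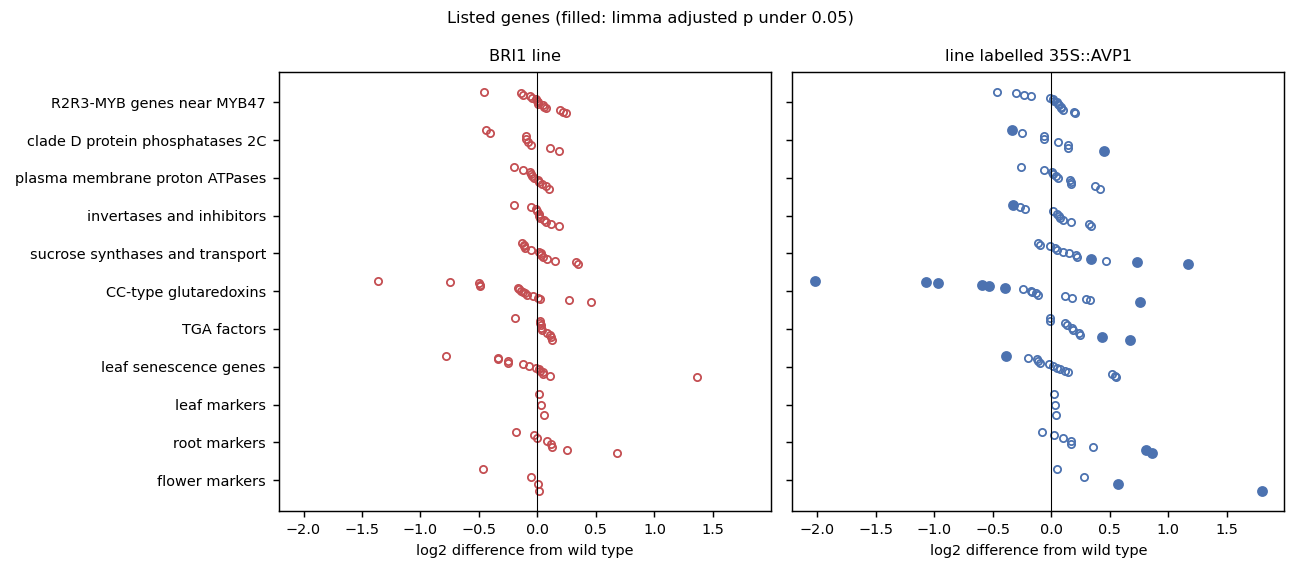
Log2 difference from wild type of each listed gene in the BRI1 line (left) and on the arrays labelled 35S::AVP1 (right); each circle is a gene, and filled circles are genes called by limma. No circle is filled in the BRI1 line, and on the arrays labelled 35S::AVP1 the glutaredoxins hold 6 of the 9 falls among the 8 lists other than the marker lists.

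The genes on each side of the 5 along the chromosomes were read to see whether the differences were shared by their surroundings. Of 50 neighbouring protein-coding genes, 5 on each side, 39 were measured. Limma called 0 of these in the BRI1 line (4 at an unadjusted p under 0.05) and 5 on the arrays labelled 35S::AVP1, 4 higher and 1 lower, which is 12.8% beside 11.1% of all loci. Beside MYB47, the xyloglucan xylosyltransferase gene XXT4 (0.51, limma adjusted p = 0.0111) and AT1G18720 (0.37, limma adjusted p = 0.0225) rose on the arrays labelled 35S::AVP1, and AT1G18720 failed without 5 of the 9 arrays, after median centring and when only the groups compared were fitted. The other neighbours called there were AT5G02740 (0.27) near APD7 and AT4G33060 (-0.34) near AT4G33040, which failed without 7 and 6 of the 9 arrays. AT5G02740 also failed after median centring, when only the groups compared were fitted and with the replicate number as a block. None of the 6 measured neighbours of AT1G62660 was called against wild type.

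AT5G26280, the next gene after AT5G26270, was higher in the lines' means than in wild type. It was at 5.95, 5.08 and 5.74 in the BRI1 line, 7.66, 7.65 and 7.33 on the arrays labelled 35S::AVP1 and 4.98, 5.08 and 4.50 in wild type. Its level was thus highest where that of AT5G26270 was lowest, with 1 array of the BRI1 line at the level of wild type. The rise on the arrays labelled 35S::AVP1 was 6.48-fold (2.70 on the log2 scale, limma adjusted p = 3.4e-05), and the difference in the BRI1 line was 0.74 (95% interval 0.25 to 1.23; limma adjusted p = 0.639). AT5G26260, the nearest measured gene on the other side (AT5G26262 between them was not measured), differed by 0.46 in the BRI1 line (limma adjusted p = 0.847) and 0.17 on the arrays labelled 35S::AVP1 (limma adjusted p = 0.604). How the probes separate AT5G26280 from similar genes was not among the information used here.

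**Figure D4:**
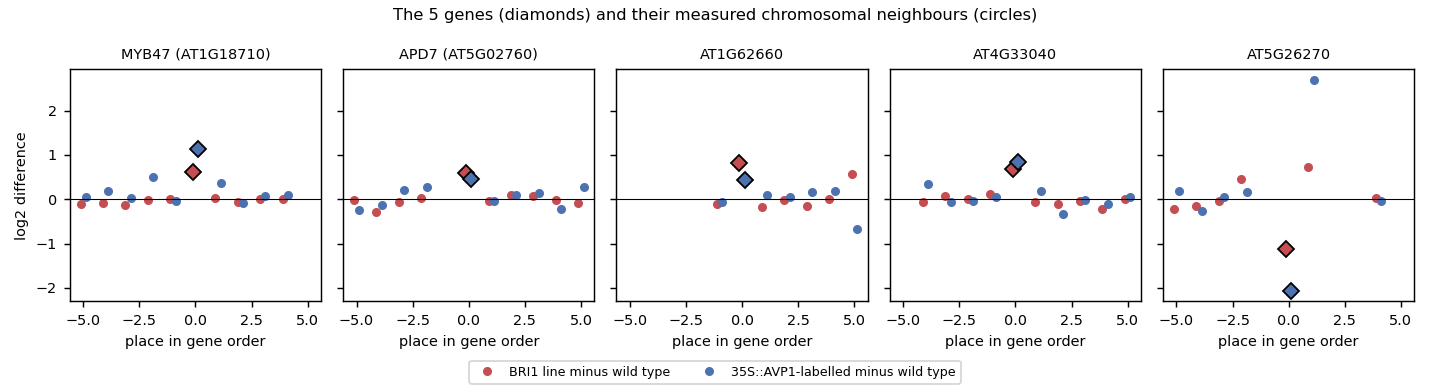
Log2 differences from wild type of the 5 genes (diamonds, at 0) and of their measured protein-coding neighbours up to 5 genes away (circles), in the BRI1 line and on the arrays labelled 35S::AVP1; the horizontal axis is the place in gene order, not a distance in bases. Most neighbours lie near 0, and AT5G26280 at place 1 in the last panel stands at 2.70 on the arrays labelled 35S::AVP1.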

How the data were processed

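RNA was measured on 9 Affymetrix ATH1 arrays. Per the submitters' processing notes, the deposited values are log2 levels made by the authors with RMA; no source used here gives the RMA version, how probes map to loci or which arrays were normalized as 1 set. Array medians were 6.34 to 6.42; arrays give no counts, so their number limits the precision. Names and gene order came from the RefSeq table for TAIR10.1, which held 20508 of the 20777 loci.

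Genotype means were modelled for every locus at once with limma 3.58.1 in R 4.3.3 (6 residual and 3.94 prior degrees of freedom) and adjusted by Benjamini-Hochberg within each contrast at 0.05; it was tested on simulated data. The spread behind each p-value is that among biological repeats. Counts at an unadjusted p under 0.05 are given without the share of all loci at that limit, which was not counted, so nothing is read from them.

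The genes, lists, tests and alternatives were chosen with earlier results of these data known. Genes were named by a fixed rule: the 5 genes, BRI1 and AVP1, the 3 nearest profiles of each, called genes of each list (up to 6, otherwise up to 2 by lowest p), chromosomal neighbours and loci near the threshold; AHA1, AHA2, MYB95, VI2, SARK, SAG12, IRT1, the 3 leaf genes, AT4G15680 and the 4 named glutaredoxins were added after their values were seen. The lists are R2R3-MYB genes, clade D phosphatases, proton ATPases, invertases, sucrose synthases and transporters, glutaredoxins, TGA factors, leaf senescence genes, and leaf, root and floral markers. A planned ranking by protein similarity and a promoter motif search were not run.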

Additional observations from a re-analysis of the deposited data

How the results depend on the processing

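Alternatives were quantile normalization, median centring, removal of loci in the lowest 25% of mean level, an intensity trend, a fit of only the groups compared, the replicate number as a block, and each of the 9 arrays left out, 15 in all. All 15 differences of the 5 genes kept their sign in each. In the count of loci called in both lines with the same sign, 7 became 0 when only the groups compared were fitted, and 0 to 4 without 1 array. All of the 5 genes were called in both lines after quantile normalization, median centring and removal of dim loci, 4 with the trend (AT4G33040 lost) and 4 with the replicate block (APD7 lost), and 0 when only the groups compared were fitted. Of the 5 genes, 2 to 3 were called between the lines without 1 array and 2 when only the groups compared were fitted. The 137 listed genes and neighbours, marker lists left out, had 0 calls in the BRI1 line without any 1 array and 2 with the replicate block. On the arrays labelled 35S::AVP1 they had 21, with 13 to 21 without 1 array (13 without replicate 1 or 3 labelled 35S::AVP1 or wild type replicate 2) and 28 with the replicate block. The labels do not say that a replicate number marks shared growth. Deviations from the group means correlated at 0.02 to 0.48 between same-numbered arrays (over 0.1 in 5 of 9 pairs) and at -0.50 to 0.49 between others (over 0.1 in 2 of 18). Wild type replicate 3 was closest to BRI1 line replicate 2, so not every array was closest to its own number, and whether the numbers mark a pairing is not settled. The replicate block raised all calls to 23 in the BRI1 line and 2602 on the arrays labelled 35S::AVP1. Among calls on the arrays labelled 35S::AVP1, 57.0% were higher; this became 49.1% with quantile normalization and 47.3% with median centring. All calls in the BRI1 line numbered 7 when only the groups compared were fitted and 3 to 10 without 1 array. Fits with fewer arrays have fewer degrees of freedom; other causes were not tested.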

Other observations

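Among the loci with profiles nearest to the 5 genes were PYK10, MEB1 and MVP1, which are named for endoplasmic reticulum bodies or for endomembrane shape. Genes of these bodies, compartments of Arabidopsis and its relatives that store beta-glucosidases, were therefore listed after their values were seen, and no test was made. Of 9 listed, 6 were measured. PYK10, MEB1 and MVP1 came in through profiles like those of genes chosen for being higher in both lines, so nothing is read from their direction. The other 3 had differences from wild type of 0.10 (NAI1), 0.56 (NAI2) and 0.25 (MEB2) in the BRI1 line, and of 0.42, 0.29 and 0.33 on the arrays labelled 35S::AVP1. NAI2, which is needed to form the bodies, was at 9.11 ± 0.26 in the BRI1 line, 8.84 ± 0.16 on the arrays labelled 35S::AVP1 and 8.55 ± 0.24 in wild type (SD, n = 3 each). NAI1, the transcription factor that controls them, was at 6.68 ± 0.10, 7.0 ± 0.08 and 6.58 ± 0.18 in the same order, and MEB2, a membrane protein of the bodies, at 4.68 ± 0.32, 4.76 ± 0.21 and 4.44 ± 0.13. The BRI1 line overlapped wild type for NAI1 and MEB2, and the arrays labelled 35S::AVP1 did for NAI2. The 2 comparisons share the wild type arrays, and PYK10 is also one of the root markers that were higher on the arrays labelled 35S::AVP1; the part of either was not tested.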
